A study of Mus musculus with 22 samples.

Results

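In 3 of the 22 mammary gland lanes of the series, a single probe, miR-720, supplied more than 40% of all counts of endogenous probes. These lanes were basal 1, flaxseed 3 and SDG 5, 1 from each of 3 diets, and they are called here the lanes led by miR-720. They were chosen on that measured share alone, and each was set against the other lanes of its own diet (14 lanes in all: 4 basal, 5 flaxseed and 5 SDG), on all other probes. The 5 lanes of the flaxseed oil diet held no such lane.

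Every lane holds total RNA from the 4th left mammary gland of a female C57BL/6 mouse, counted with a NanoString nCounter mouse miRNA panel. Mice were 4 to 5 weeks old when the diets began, and the diets lasted 3 weeks. The fed diets were 10% flaxseed, 0.15% SDG (secoisolariciresinol diglucoside, a lignan from flaxseed) and 3.67% flaxseed oil, against a basal AIN-93G diet as the control. The series compares miRNAs of the gland between flaxseed, its oil or its lignan and the control diet. The labels name no litter, cage or processing day, so p-values measure the spread between these lanes. Since the lanes were grouped by a measured value and not by a treatment, the tests say how these lanes differed from lanes of the same diets and nothing about diet.

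A miRNA is a strand of about the length of the sequences printed here that guides Argonaute proteins to target mRNAs through its seed, bases 2 to 8 from the 5′ end. miR-720 is catalogued as a miRNA but is a fragment of a threonine transfer RNA, and miR-1937a, miR-1937b and miR-1937c are likewise read as pieces of transfer RNA. Transfer RNA is far more plentiful in a cell than any miRNA. Many of its fragments form by cleavage of mature transfer RNA, including under stress, rather than by the Drosha and Dicer cuts that make miRNAs. In the nCounter assay a tag is first ligated to each small RNA, and the tagged molecules are then counted by colour barcode. The mRNAs (Actb, B2m, Gapdh and Rpl19) are counted in the same lane without that ligation.

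The sequences below are those on which the results for single miRNAs turn, from RefSeq (GRCm38.p6), with the seed in capitals. The panel names no arm for most of them, and the arm printed is the one usually meant by the older name. Mature sequences of miR-720, miR-1937a, miR-1937b, miR-1937c and miR-1944 are not printed. miR-410 and miR-127 were higher in the led lanes than in the other lanes. miR-691 was seen mainly in the led lanes and is described without a test.
miR-691: aUUCCUGAagagaggcagaaaa
miR-410: aAUAUAACacagauggccugu
miR-127: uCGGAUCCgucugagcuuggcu
miR-16, miR-195 and miR-322 fell in the led lanes, and miR-15a, miR-15b and miR-497 share their seed.
miR-16: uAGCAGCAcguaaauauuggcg
miR-195: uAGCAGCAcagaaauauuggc
miR-322: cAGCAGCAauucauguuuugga
miR-15a: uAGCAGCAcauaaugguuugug
miR-15b: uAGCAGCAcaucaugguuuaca
miR-497: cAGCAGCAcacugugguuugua
miR-152 and miR-148b, which share another seed, were both lower.
miR-152: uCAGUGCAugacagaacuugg
miR-148b: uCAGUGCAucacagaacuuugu
miR-103 with miR-107, and miR-27a with miR-27b, differ within each pair by 1 base, and miR-103, miR-107 and miR-27b had their largest differences in flaxseed 3.
miR-103: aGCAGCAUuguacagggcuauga
miR-107: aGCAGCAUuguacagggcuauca
miR-27a: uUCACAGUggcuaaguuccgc
miR-27b: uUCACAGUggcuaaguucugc

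In GRCm38.p6, miR-691 lies at chr16:74342005-74342026 on the minus strand. miR-127 at chr12:109592888-109592909 and miR-410 at chr12:109743764-109743784 lie on the plus strand, in the imprinted Dlk1-Dio3 cluster. miR-16 is encoded at chr14:61631936-61631957 beside miR-15a at chr14:61632075-61632096, both on the minus strand, and again at chr3:69009918-69009939 beside miR-15b at chr3:69009775-69009796, both on the plus strand. miR-195 at chr11:70235062-70235082 and miR-497 at chr11:70234730-70234751 are neighbours on the plus strand, and miR-322 is at chrX:53054306-53054327 on the minus strand.

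One point on labels bears on SDG 5. In the authors' deposited table of normalised log2 values, each of the 6 SDG columns followed the raw counts of a different SDG lane more closely than those of its own. The deposited column with the miR-720 level of a led lane is labelled SDG 3, while the deposited lane file with it is labelled SDG 5. The name SDG 5 follows the lane files, and the diet is the same in both.

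miR-720 had 238218 counts in basal 1, 325807 in flaxseed 3 and 325045 in SDG 5, against 8168 to 32562 counts in the other lanes of these diets. Its share of endogenous counts was 65.4% (95% exact binomial interval 65.3% to 65.6%) in basal 1, 53.7% (53.6% to 53.8%) in flaxseed 3 and 47.4% (47.2% to 47.5%) in SDG 5. The other lanes of these diets had shares of 2.37% to 8.61%, with a median of 3.79%, and the oil lanes 2.47% to 4.98%. SDG 5 was the lane just above the limit of 40%, and basal 2, at 8.61%, the lane just below it. The shares are given without a test because they chose the lanes, and the intervals cover counting error only.

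The synthetic positive controls, which are added at a fixed amount, averaged 1223 ± 124 counts (SD, n = 3) in led lanes and 1233 ± 145 counts (SD, n = 14) in other lanes. Relative to them, miR-720 stood at 219, 260 and 245 in basal 1, flaxseed 3 and SDG 5, against 6.41 to 29.0 in other lanes. All endogenous probes without miR-720 summed to 125999 counts in basal 1, 280700 in flaxseed 3 and 361228 in SDG 5, against 250849 to 730533 in other lanes. Basal 1 alone lay below every other lane in that sum, and the 3 lanes together were lower by 0.77 on the log2 scale within diets (exact permutation p = 0.0556, adjusted p = 0.0972 over 7 lane measures). The permutation moved the led label within each diet, which gives 180 assignments and a smallest possible p of 0.00556.

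The negative controls, whose barcodes match no RNA, were lower in the led lanes. Their mean count was 10.75, 8.25 and 9.5 in basal 1, flaxseed 3 and SDG 5, against 12.1 to 28.2 in other lanes. All 3 led lanes lay below every other lane, and the difference within diets was -1.08 on the log2 scale (exact permutation p = 0.00556, the smallest possible, adjusted p = 0.0389). Endogenous probes above background, taken as the mean plus 2 SD of the lane's 8 negative controls, numbered 201, 254 and 286 in basal 1, flaxseed 3 and SDG 5 and 173 to 249 in other lanes (adjusted exact p = 0.0972). The background limit was 17.5 to 22.4 counts in led lanes and 21.6 to 66.8 in other lanes. A count could therefore be above background in a led lane and not in another lane. Adjusted exact p values for the positive, ligation and spike-in controls were 0.978, 0.266 and 0.179. The ligation controls of flaxseed 3 stood at 0.510 of the other flaxseed lanes, while those of basal 1 and SDG 5 stood at 1.07 and 1.03 of their diets.

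The mRNA probes separated the led lanes from one another. B2m, a subunit of class I histocompatibility molecules, had 4248 counts in basal 1, 9 in flaxseed 3 and 878 in SDG 5, against 4209 to 11469 in other lanes. Gapdh, an enzyme of glycolysis, had 433, 9 and 129 counts in the same order of led lanes, against 208 to 1020 in other lanes. Both counts of 9 in flaxseed 3 were under that lane's background limit of 17.5. Actb, a cytoskeletal actin, had 8379, 1123 and 5638 counts in the led lanes and 3050 to 13039 in other lanes.

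Rpl19, a protein of the large ribosomal subunit, was not low: it had 2978, 3626 and 2051 counts in basal 1, flaxseed 3 and SDG 5, against 1042 to 3884 in other lanes. The count of B2m per count of Rpl19 was 1.43, 0.00248 and 0.428 in the led lanes, against 2.68 to 6.85 in other lanes and 2.44 to 4.67 in oil lanes. All 3 led lanes thus lay below every other lane in this ratio, with flaxseed 3 far below the rest. The other mRNAs per count of Rpl19 did not separate the led lanes fully. Actb per Rpl19 was 2.81, 0.310 and 2.75 in basal 1, flaxseed 3 and SDG 5, against 2.72 to 5.47 in other lanes. Gapdh per Rpl19 was 0.145, 0.00248 and 0.0629, against 0.127 to 0.632. The geometric mean of the 4 mRNAs over the positive controls was 2.39, 0.108 and 0.805 in the led lanes and 1.16 to 4.01 in other lanes (-1.75 on the log2 scale within diets, exact permutation p = 0.0278, adjusted p = 0.0972).

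**Figure D1:**
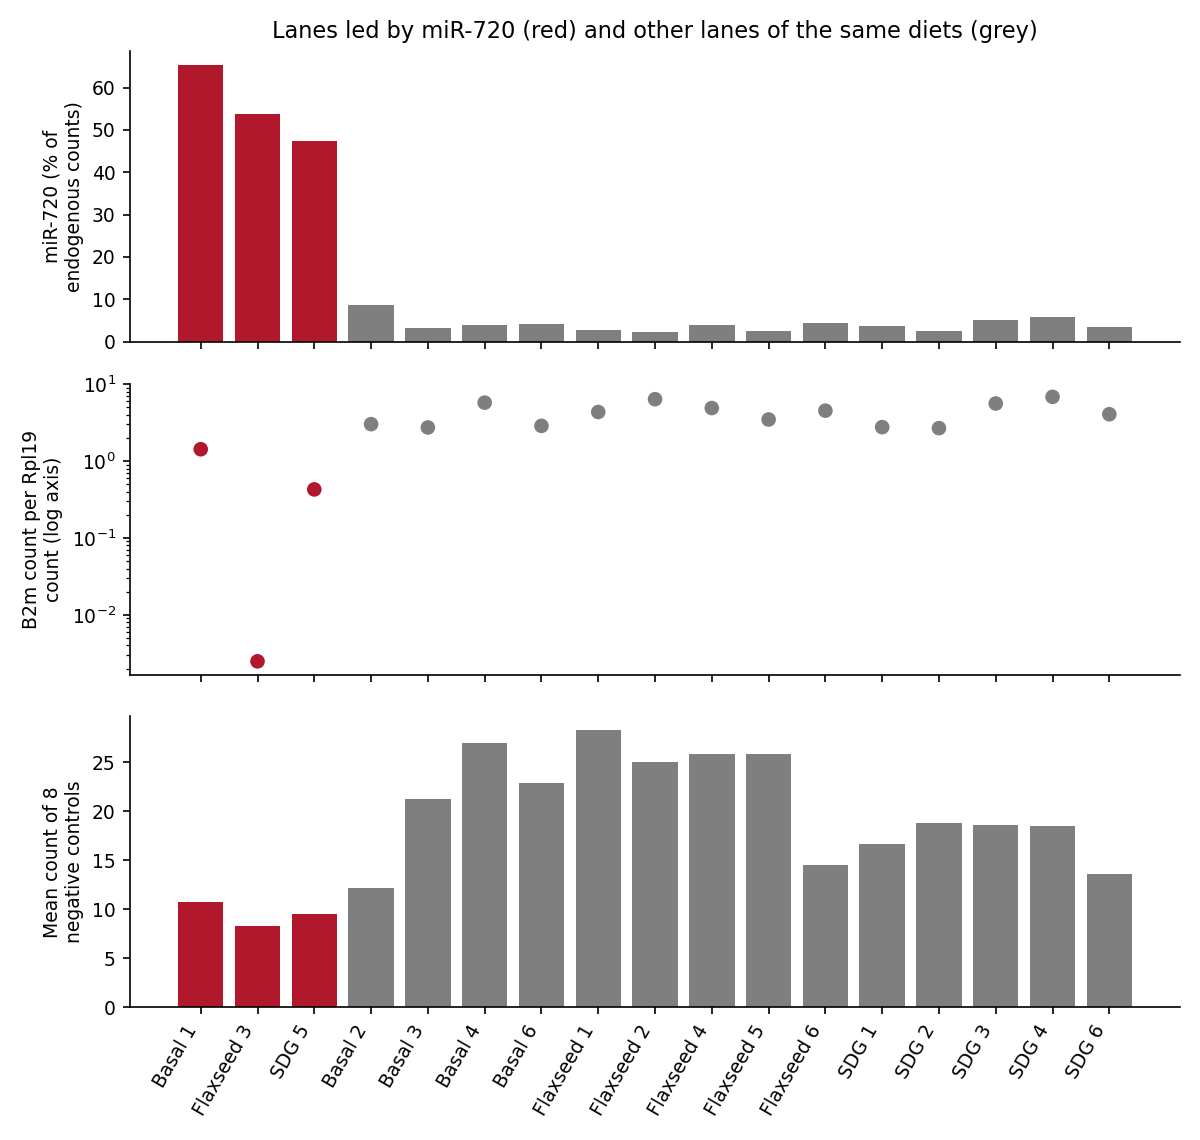
Share of miR-720 in endogenous counts (top), B2m count per Rpl19 count on a log axis (middle) and mean count of the 8 negative controls (bottom), 1 bar or point per lane, with the 3 lanes led by miR-720 in red on the left and the 14 other lanes of the same diets in grey. The led lanes have the highest miR-720 shares (47.4% to 65.4%), the lowest B2m to Rpl19 ratios (0.00248 to 1.43) and the lowest negative controls (8.25 to 10.75). The ratios of Actb and Gapdh to Rpl19, not shown, overlapped between led and other lanes.

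Some epithelial markers of a mammary gland were present in led and other lanes. The epithelial miRNAs miR-200a, miR-200b, miR-200c, miR-141, miR-429 and miR-205 were above background in all 3 led lanes and in all 14 other lanes. Not every epithelial probe was. Of 9 luminal epithelial probes on the panel, 7 were above background in enough lanes to be tested. Of 5 basal epithelial and keratinocyte probes 4 were, and 1 of these was above background in fewer than 5 other lanes. The luminal miR-96 was not above background in flaxseed 3. Levels below are in log2 CPM, that is, counts over the TMM-scaled size of the lane without miR-720, with 1 count added.

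With miR-720 set aside, 235 of the other 598 endogenous probes were tested, namely those above background in at least 5 of the 17 lanes. In led against other lanes, 87 probes (37.0%) passed an adjusted p of 0.05 in edgeR's quasi-likelihood test with diet in the model, 56 of them higher (23.8%) and 31 lower (13.2%). The higher ones included miR-1937a/b, miR-1937c, miR-1944, several miRNAs of the Dlk1-Dio3 cluster and let-7b. The lower ones included miR-16, miR-322, miR-26b, miR-152, miR-148b and miR-350. In 15 of the tested probes (6.38%) all 3 led lanes lay above every other lane, and in 9 (3.83%) all 3 lay below. Against its own diet alone, each led lane lay above all other lanes in 20 probes (8.51%) and below them in 17 (7.23%).

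These calls rest on where the lanes are levelled and on flaxseed 3. The 56 to 31 split became 35 to 41 with total counts, 35 to 39 with the 100 most abundant probes, 135 to 0 with the housekeeping mRNAs, 3 to 35 with positive controls, 4 to 167 with library sizes that include miR-720, and 15 to 89 in the authors' deposited table. The median difference over all tested probes moved with it, being 0.13 in the main scaling, 1.67 with housekeeping mRNAs, -0.73 with positive controls and -1.21 with miR-720 included. Without flaxseed 3 the count was 37, and with SDG 5 as the only led lane it was 8. Directions below are therefore relative to the other miRNAs of the lane.

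The transfer RNA fragments of the panel other than miR-720 were higher in all 3 led lanes. miR-1937a/b, a single probe, stood at 15.92, 14.29 and 14.50 log2 CPM in basal 1, flaxseed 3 and SDG 5, against 11.02 to 13.39 (median 11.97) in other lanes. No led lane overlapped with the other lanes, and the difference was 2.74 ± 0.38 (log2, SE, adjusted p = 6.84e-05). miR-1937c stood at 15.83, 14.39 and 14.90, against 11.43 to 13.93 in other lanes (2.36 ± 0.34, adjusted p = 8.48e-05). These probes may share signal, since their names mark near-identical sequences. Both of the 2 tested probes of the list of transfer and ribosomal RNA fragments were called higher, beside 23.8% over all tested probes. Their median difference was 2.55, against 0.13 over all tested probes, and both stayed higher under every scaling. The other 3 probes of that list, miR-712, miR-714 and miR-715, pieces of a ribosomal RNA precursor, were not above background in enough lanes to be tested.

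miR-691 was a signal seen mainly in the led lanes. It had 183, 137 and 168 counts in basal 1, flaxseed 3 and SDG 5, against 5 to 36 counts in other lanes, and the groups did not overlap. In 12 of the 14 other lanes it was not above background, and it passed the filter only because the led lanes were high. Its counts are therefore given as a description, with no test. In all, 12 tested probes were above background in fewer than 5 other lanes, and 7 of the 56 higher calls came from them. The remaining 223 tested probes held 49 higher and 31 lower calls.

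miR-1944 reached 16.45 and 16.55 log2 CPM in basal 1 and flaxseed 3 and 14.39 in SDG 5, against 13.14 to 14.36 in other lanes (2.20 ± 0.30, adjusted p = 6.80e-05). SDG 5 was only just above the highest other lane. miR-664 stood at 10.50, 9.33 and 9.15 against 7.84 to 8.68 (1.55 ± 0.21), and miR-328 at 11.32, 10.61 and 9.81 against 8.59 to 9.59 (1.37 ± 0.21). The led lanes lay above all other lanes for both. miR-1953, miR-2183, miR-326 and miR-674 were higher by 1.48, 1.37, 1.04 and 1.19, with adjusted p between 0.00106 and 0.00599.

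**Figure D2:**
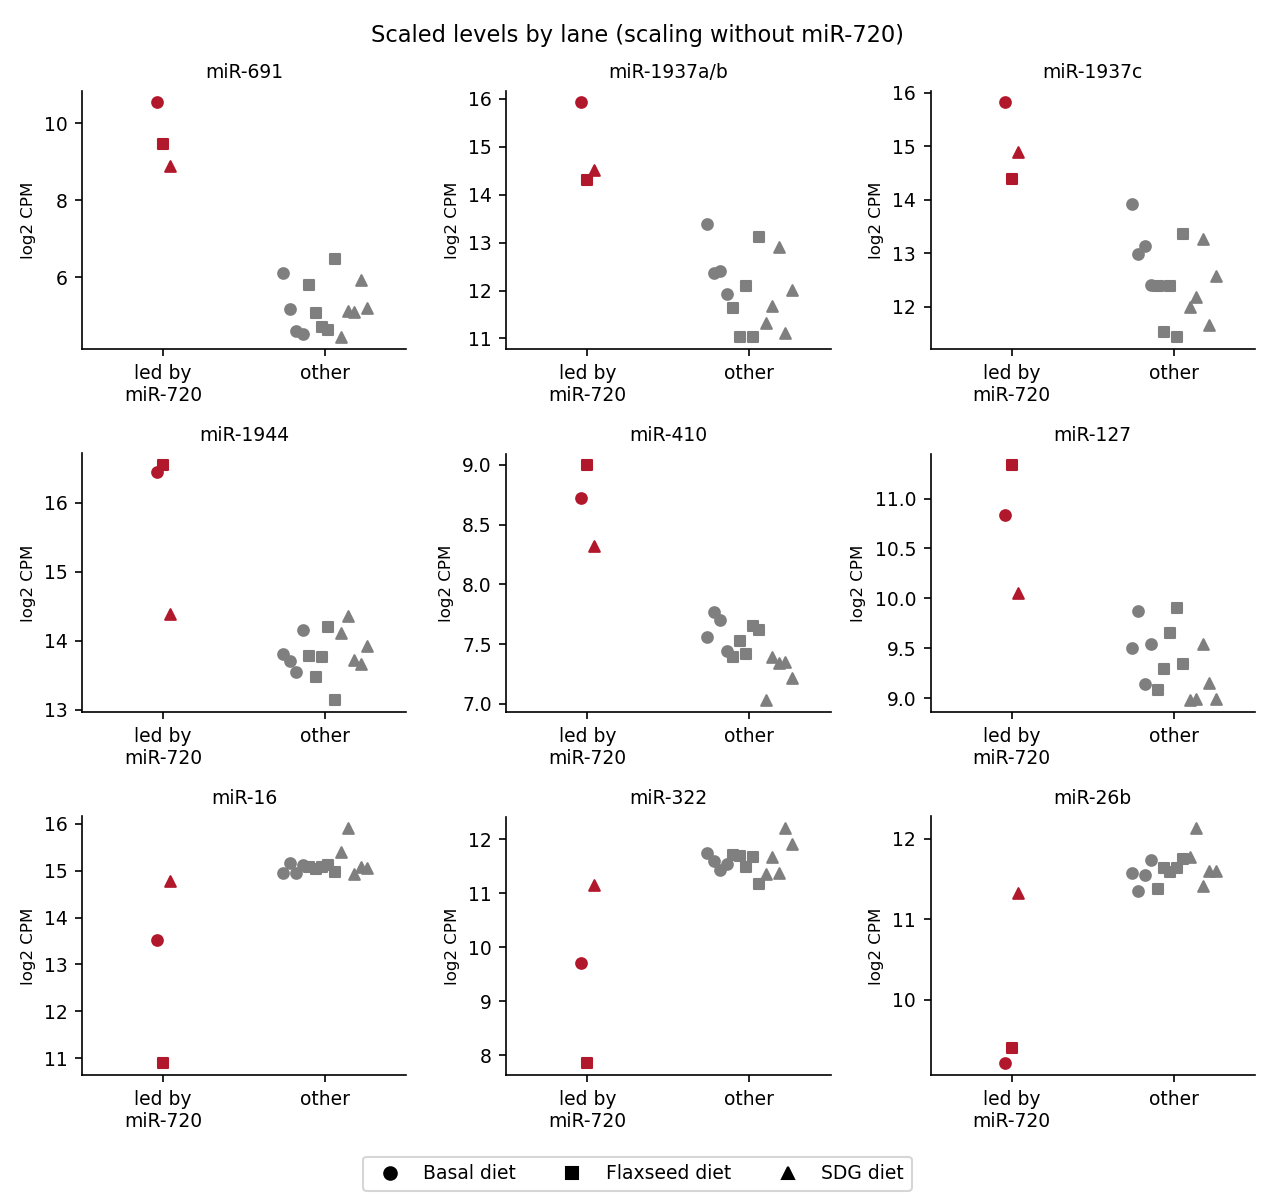
Scaled level (log2 CPM, vertical axis) of 9 probes, with the 3 lanes led by miR-720 in red on the left of each panel and the 14 other lanes in grey on the right, the symbol giving the diet. The led lanes lie above all other lanes for miR-691, miR-1937a/b, miR-1937c, miR-1944, miR-410 and miR-127, and below them for miR-16, miR-322 and miR-26b. miR-691 passed the filter only because the led lanes were high and is shown as a description. With library sizes that include miR-720, miR-410 turned to -0.13, and with housekeeping scaling miR-26b turned to 0.0060.

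The Dlk1-Dio3 cluster is an imprinted block on chromosome 12 that encodes many miRNAs from the maternal allele. Of its 52 probes on the panel 20 were tested, of which 10 were called higher and 1 lower. Over all tested probes 23.8% were called higher and 13.2% lower. The median difference was 0.13 over all tested probes and 0.53 in the cluster. The median of the cluster turned to -0.30 with positive control scaling and -0.77 with miR-720 in the library size. miR-410 stood at 8.72, 9.0 and 8.33 log2 CPM in basal 1, flaxseed 3 and SDG 5, against 7.03 to 7.77 in other lanes (1.22 ± 0.14, adjusted p = 1.26e-05). Its 3 led lanes lay clear of all others. miR-127, which is antisense to the imprinted gene Rtl1, stood at 10.84, 11.33 and 10.05, against 8.98 to 9.90 (1.39 ± 0.20, adjusted p = 8.48e-05). miR-376a was higher by 1.14 ± 0.23 (adjusted p = 0.00294).

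The other Dlk1-Dio3 probes called higher were miR-136, miR-382, miR-377, miR-539, miR-379, miR-544 and miR-411, by 0.54 to 1.29. Of these, miR-544 and miR-411 were above background in only 2 and 4 of the other lanes. miR-434-3p was the member called lower (-1.10, adjusted p = 0.0414), and its value came mainly from flaxseed 3 (-3.98 from its diet, against -0.16 in basal 1 and -0.72 in SDG 5). Without flaxseed 3, 5 of 19 tested members were called higher, beside 23 of 227 over all tested probes. With SDG 5 as the only led lane it was 1 of 19 members, beside 4 of 227 probes. With positive control scaling 0 of 20 members were called higher, beside 3 of 235 probes, and 2 were called lower, beside 35 of 235 probes. With miR-720 in the library size 0 were higher and 13 of 20 lower, beside 167 of 235 probes lower.

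miRNAs with late catalogue numbers (1000 or higher) include entries that were later withdrawn from the catalogue. Of 111 such probes 31 were tested, 18 of them called higher and 0 lower, beside 23.8% higher and 13.2% lower over all tested probes. Their median difference was 1.11, against 0.13 over all tested probes, and turned to -0.26 with miR-720 in the library size. This list holds miR-1937a/b, miR-1937c and miR-1944, and 3 of its higher calls (miR-1191, miR-2137 and miR-2140) were above background in fewer than 5 other lanes. Some members were high in a single lane: miR-2141 stood at 9.11, 12.77 and 7.96 log2 CPM in basal 1, flaxseed 3 and SDG 5, against 6.19 to 9.88 in other lanes. Without basal 1, 9 of 29 tested members were called higher, beside 45 of 230 over all tested probes, and without flaxseed 3 it was 9 of 28, beside 23 of 227. With SDG 5 alone 2 of 28 were higher, beside 4 of 227. With miR-720 in the library size 3 of 31 were higher and 13 lower, beside 4 higher and 167 lower of 235. With positive control scaling 2 of 31 were higher and 0 lower, beside 3 higher and 35 lower of 235. The median of the list was then 0.098, against -0.73 over all tested probes.

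The miR-297, miR-466, miR-467 and miR-669 families come from a repeated block in an intron of Sfmbt2, an imprinted gene. Of 33 probes 6 were tested, 4 of them higher and 0 lower, beside 23.8% higher and 13.2% lower over all tested probes, with a median of 1.20 that turned to -0.18 with miR-720 in the library size. The probe for miR-297a, miR-466f and miR-669b was 2.01 above its diet in basal 1, 0.96 in flaxseed 3 and 0.66 in SDG 5 (1.22 ± 0.28, adjusted p = 0.00535). Without basal 1, 1 of 6 was called higher, beside 45 of 230 over all tested probes, and with SDG 5 alone 0 of 6, beside 4 of 227. With miR-720 in the library size 0 of 6 were higher and 2 lower, beside 4 higher and 167 lower of 235 probes. With positive control scaling 0 of 6 were higher and 0 lower, beside 3 higher and 35 lower of 235. Members of these families are close in sequence, so the probes may share signal.

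Among the 10 probes with the highest mean level, let-7b and miR-16 passed the test. let-7b, of the let-7 family that restrains growth-promoting mRNAs, stood at 16.28, 17.70 and 15.64 log2 CPM in basal 1, flaxseed 3 and SDG 5, against 15.24 to 15.9995 in other lanes (1.12 ± 0.24, adjusted p = 0.00377). SDG 5 lay inside the range of the other lanes. The endothelial miR-126-3p differed by 0.04 ± 0.22 (adjusted p = 0.881), and let-7g, let-7d, let-7c, miR-125b-5p, miR-199a-3p, miR-22 and miR-21 by -0.50 to 0.66, none past the threshold. The let-7 family had 1 higher call of 9 tested, beside 23.8% over all tested probes. Its members lie close in sequence and may share signal.

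miR-16, a broadly expressed miRNA that targets cell cycle mRNAs, stood at 13.52, 10.89 and 14.77 log2 CPM in basal 1, flaxseed 3 and SDG 5, against 14.94 to 15.91 in other lanes (-1.60 ± 0.45, adjusted p = 0.0117). miR-322, the mouse counterpart of human miR-424, stood at 9.71, 7.85 and 11.15, against 11.16 to 12.20 (-1.69 ± 0.42, adjusted p = 0.00710). miR-195 stood at 9.75, 7.11 and 10.72, against 10.71 to 11.31 (-1.31 ± 0.42, adjusted p = 0.0231). For miR-16 and miR-322 every led lane lay below every other lane, with flaxseed 3 lowest.

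RefSeq lists 10 mature miRNAs with the seed AGCAGCA. The 6 of them taken here, grouped after the values were seen, had unlike values in flaxseed 3. In flaxseed 3, miR-16, miR-195 and miR-322 were -4.18, -3.77 and -3.70 from the other flaxseed lanes, while miR-15a, miR-15b and miR-497 were -0.17, 0.58 and -0.71. In basal 1 the same 6 miRNAs were -1.53, -1.32 and -1.87, then -1.94, -0.67 and -0.90. In SDG 5 they were -0.50, -0.21 and -0.54, then -0.30, -1.35 and 0.21, so that both sets of 3 overlapped in basal 1 and SDG 5. miR-15a, miR-15b and miR-497 did not pass the led against other test (adjusted p = 0.0623, 0.499 and 0.143). miR-16 and miR-15a are made from a shared cluster on chromosome 14, and miR-16 and miR-15b from another on chromosome 3.

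**Figure D3:**
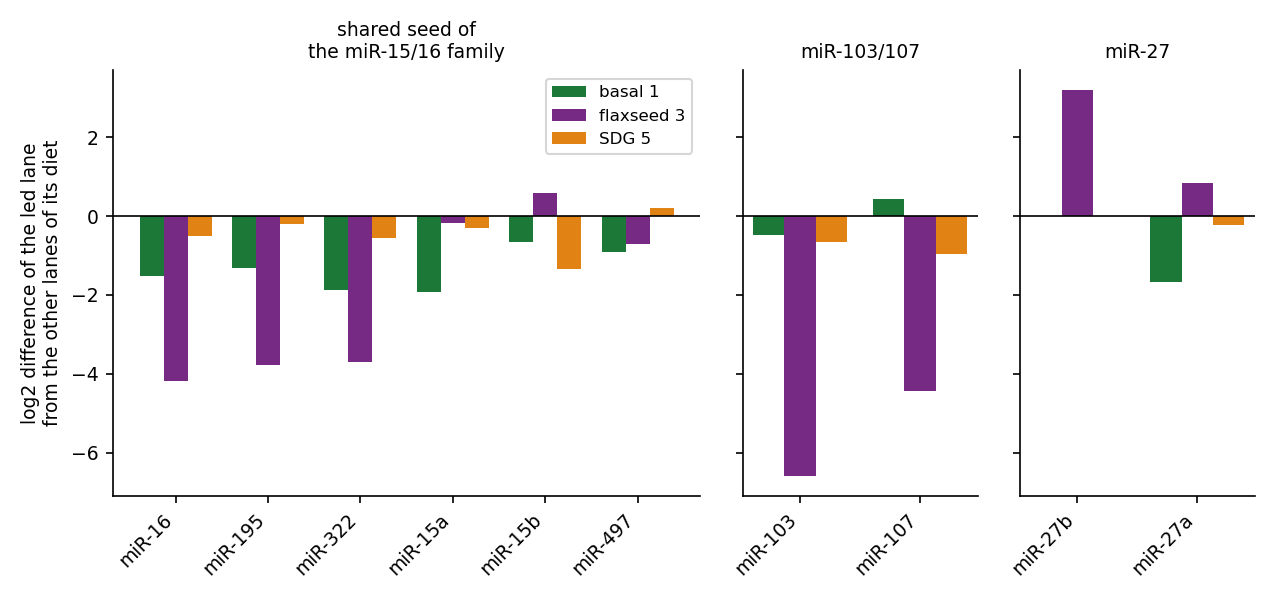
Difference of each led lane from the mean of the other lanes of its diet (log2, vertical axis) for 6 miRNAs that share the seed AGCAGCA, for miR-103 and miR-107, and for miR-27b and miR-27a, with 1 bar per led lane and no error bar because each is a single lane. In flaxseed 3 miR-16, miR-195 and miR-322 lie between -4.18 and -3.70 and miR-103 at -6.61, while miR-15a, miR-15b and miR-497 lie between -0.71 and 0.58 and miR-27b at 3.21.

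For miR-26b, miR-152, miR-148b and miR-362-3p, basal 1 and flaxseed 3 lay close to each other. miR-26b stood at 9.21, 9.40 and 11.32 log2 CPM in basal 1, flaxseed 3 and SDG 5, against 11.35 to 12.13 in other lanes (-1.46 ± 0.32, adjusted p = 0.00456). miR-152, which shares its seed with miR-148b, stood at 10.78, 10.97 and 11.54, against 11.66 to 12.42 (-0.94 ± 0.21, adjusted p = 0.00431). miR-148b differed by -0.61 ± 0.16 (adjusted p = 0.00842), and miR-362-3p by -1.22 ± 0.24 (adjusted p = 0.00177). All 4 turned positive with housekeeping scaling.

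miR-350 stood at 9.45, 6.60 and 10.00, against 10.53 to 11.0007 in other lanes (-1.67 ± 0.41, adjusted p = 0.00710), with all 3 led lanes below. miR-301a, miR-194, miR-190, miR-214, miR-31, miR-29b, miR-532-3p and miR-96 were lower by between -1.76 and -0.86, with adjusted p between 0.00528 and 0.0168. For miR-96, of the epithelial miR-183 cluster, flaxseed 3 was at 3.94 log2 CPM, which was not above background.

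**Figure D4:**
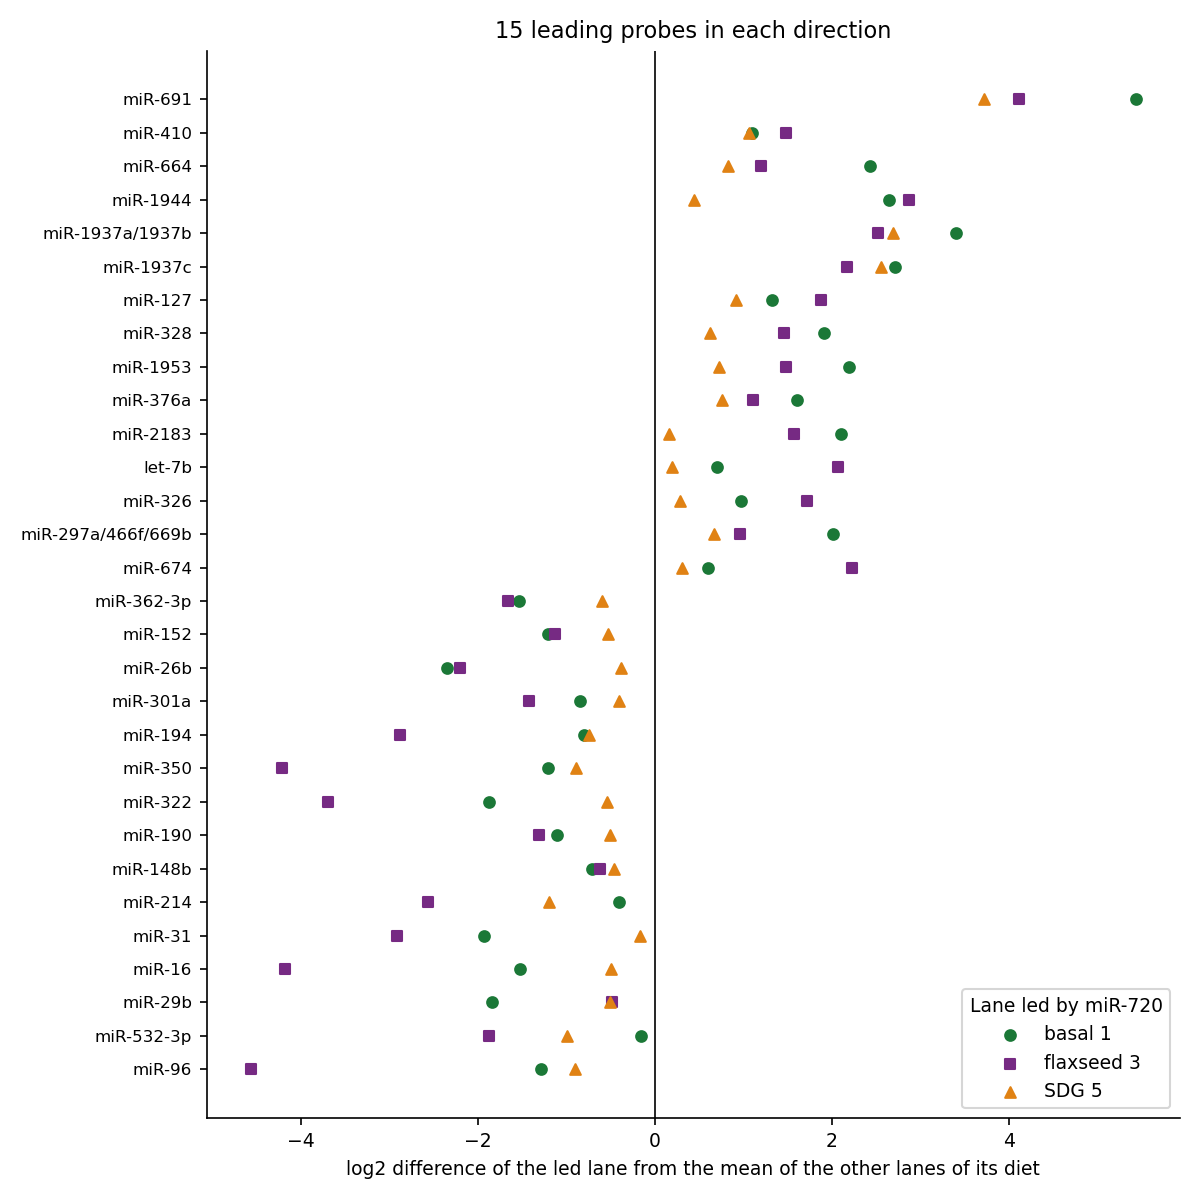
Difference of each led lane from the mean of the other lanes of its diet (log2, horizontal axis) for the 15 higher and 15 lower probes with the smallest p-values, 1 symbol per led lane. The higher probes include miR-691, which passed the filter only because the led lanes were high and is shown as a description. All symbols of the higher probes lie right of 0 and all of the lower probes left of it, with SDG 5 nearest to 0 for most; 8 of the higher probes turned negative when miR-720 was kept in the library size, and 7 of the lower ones turned positive with housekeeping scaling.

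The cell type lists are given by their counts, beside 23.8% higher and 13.2% lower over all tested probes. A bulk lane cannot tell fewer cells of a type from less RNA per cell. Of 4 tested striated muscle miRNAs 1 was called, miR-206, a skeletal muscle miRNA (2.05 ± 0.64, adjusted p = 0.0205). miR-1 reached 12.60, 13.24 and 16.03 log2 CPM in the led lanes, against 8.33 to 17.59 in other lanes, and miR-133a at 11.75, 11.18 and 11.68 against 5.50 to 13.50. Both spread widely in the other lanes, and neither passed (adjusted p = 0.200 and 0.0976). The summed level of the 7 muscle probes was 10425, 13520 and 70971 CPM in basal 1, flaxseed 3 and SDG 5, against 588 to 211187 CPM in other lanes. The heart muscle miRNAs miR-208a and miR-208b were above background in 0 of the led lanes and 0 of the other lanes. The part of muscle in the differences was not tested.

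The erythrocyte list had 1 lower call of 5 tested, miR-16. Its summed level was 18094, 15912 and 41897 CPM in the led lanes, against 45731 to 77583 CPM in other lanes, and most of it in the other lanes was miR-16. Without miR-16 the remaining 4 members summed to 6339, 14021 and 13914 CPM in the led lanes, against 10275 to 21534 CPM in other lanes. miR-486, an erythroid miRNA, was 0.74, 0.89 and 0.73 above its diet in basal 1, flaxseed 3 and SDG 5 and did not pass (0.66 ± 0.35, adjusted p = 0.146). The erythroid miR-451 did not pass, at 11.49, 12.77 and 12.52 log2 CPM against 11.66 to 13.54 (-0.46 ± 0.33, adjusted p = 0.267). The lymphocyte and myeloid list had 1 lower call of 10 tested, the probe for miR-181b and miR-181d. Its summed level was 19204, 65958 and 22652 CPM in the led lanes and 18503 to 157671 CPM in other lanes, and miR-150, a lymphocyte miRNA, differed by 0.19 ± 0.72 (adjusted p = 0.850).

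The endothelial list had 2 higher calls (miR-222 and miR-27b) and 2 lower calls (miR-23b and miR-24) of 7 tested. miR-27b was high in flaxseed 3 alone. miR-23b, miR-27b and miR-24 are made from a shared precursor cluster. The luminal epithelial list had 1 lower call of 7 tested, miR-96. The basal epithelial and keratinocyte list had 1 higher (miR-203) and 1 lower (miR-31) of 4. The smooth muscle and fibroblast list had 1 lower call of 8, miR-214, with a median of -0.54. The adipocyte list had 2 higher (miR-378 and miR-193b) and 1 lower (miR-455) of 8.

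The neuronal list had 1 higher call of 6 tested, miR-137. The liver and pancreas list had 2 lower calls of 3, miR-194 and miR-192. The miR-30 family had 1 lower call of 5 (miR-30d), the miR-29 family 1 of 3 (miR-29b), and the growth-promoting miR-17/92 group 1 of 9 (miR-19b). The single tested viral probe, mcmv-miR-M23-2, was not called. Each of these shares stands beside the 23.8% higher and 13.2% lower over all tested probes.

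The led lanes did not stand apart from their diets to the same extent. The median absolute deviation of a lane from the other lanes of its diet, over the 235 probes, was 0.799 in basal 1, 1.09 in flaxseed 3 and 0.363 in SDG 5 on the log2 scale. The other lanes lay between 0.160 and 0.370, so SDG 5 was inside their range. More than 1 log2 unit separated 94 probes of basal 1, 126 of flaxseed 3 and 29 of SDG 5 from their diets, against 4 to 19 probes in each other lane.

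**Figure D5:**
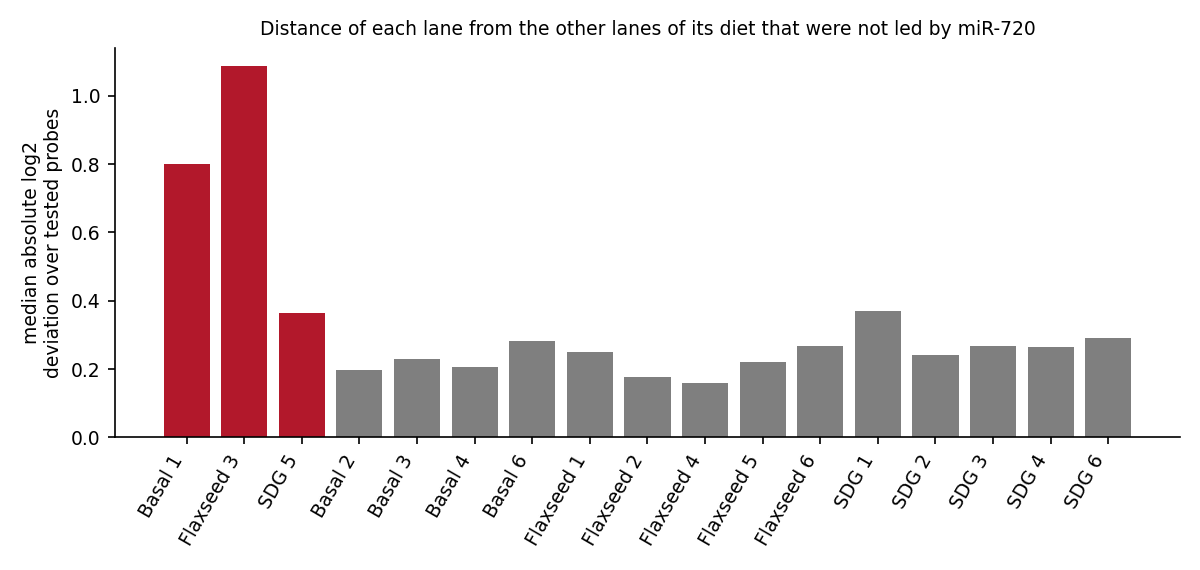
Median absolute deviation of each lane (log2, over 235 tested probes, vertical axis) from the mean of the other lanes of its diet that were not led by miR-720, with led lanes in red on the left and other lanes in grey. Flaxseed 3 (1.09) and basal 1 (0.799) stand above all other lanes (0.160 to 0.370), and SDG 5 (0.363) does not.

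A test for unequal deviations among the 3 led lanes was passed by 116 of the 235 probes (49.4%). In 68 of them flaxseed 3 was farthest from the middle lane, in 31 basal 1 and in 17 SDG 5. Of the 87 probes called in led against other lanes, 49 also differed among the led lanes. Each led lane is a single lane of its diet, assumed to vary like the other lanes, so these p-values compare 3 lanes and not groups.

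miR-103, which with miR-107 lies in introns of pantothenate kinase genes, led this test. It stood at 12.49, 6.44 and 12.31 log2 CPM in basal 1, flaxseed 3 and SDG 5, against 12.68 to 13.34 in other lanes, so that it was -6.61 from the other flaxseed lanes and -0.49 and -0.66 from the basal and SDG lanes (adjusted p = 6.60e-07). miR-107, which differs from it by 1 base, was -4.43 in flaxseed 3, against 0.44 in basal 1 and -0.95 in SDG 5. The 2 probes may share signal. miR-27b was 3.21 in flaxseed 3, 0.01 in basal 1 and 0.00 in SDG 5 (adjusted p = 2.18e-06), while miR-27a, which differs by 1 base, was 0.83, -1.67 and -0.24.

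Other probes that differed among the led lanes also had their extreme value in flaxseed 3. miR-28, miR-151-5p and miR-99b were -3.26, -3.86 and -4.79 there and between -0.39 and -0.01 in basal 1 and SDG 5. miR-30e and miR-1224 were 2.86 and 4.16 in flaxseed 3. In basal 1 they were -1.24 and 0.11, and in SDG 5 -0.11 and -0.61. The same lane had the lowest B2m, Gapdh, Actb and ligation controls, and their part in these values was not tested.

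The 19 lanes not led by miR-720 were used to ask whether other probes followed miR-720 over its ordinary range. The miR-720 level was the log2 of its count over the TMM-scaled size of the lane without miR-720. The same lane size scaled the other probes, so an error in it enters both sides of the slope. No probe of 241 tested (0%) had a slope past an adjusted p of 0.05 in edgeR's quasi-likelihood test with diet in the model, the smallest adjusted p being 0.102. At an unadjusted p under 0.05 there were 46 probes (19.1%), 20 with a positive slope (8.30%) and 26 with a negative slope (10.8%). DESeq2 called 9, limma-voom 0, and a slope on miR-720 over positive controls 25.

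The probes with the smallest p-values were miR-195, miR-365, miR-574-3p, miR-107 and miR-193 with positive slopes of 0.37 to 0.61 log2 per doubling of the scaled miR-720 level. With negative slopes of -0.89 to -0.44 they were miR-33, miR-1198, miR-652, miR-7a and miR-3472. Since 14 lanes enter both this fit and that of the led lanes, the values are only set side by side. miR-1937a/b had a slope of 0.81 ± 0.32 (unadjusted p = 0.0218, adjusted p = 0.175) beside its led lane difference of 2.74, and miR-1937c 0.66 ± 0.31 (adjusted p = 0.245) beside 2.36. miR-1944 had a slope of -0.29 ± 0.16 beside 2.20, and miR-195 a slope of 0.37 ± 0.10 beside -1.31.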

How the data were processed

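Per the file headers, the values deposited for each lane are raw counts of the probes of a NanoString nCounter miRNA panel (total RNA, mirVana kit, per the labels' protocols). A second deposited table holds log2 values of 238 miRNAs, which the authors scaled and corrected for background in a way not given in the sources used here, and served as an alternative. Endogenous counts per lane ranged from 260551 to 762146, over 599 endogenous probes. The counting intervals cover counting error only.

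Lanes were called led where miR-720 exceeded 40% of endogenous counts. The members, the 19 lists and the tests were chosen with earlier results of these data known. Probes more than 2 SD above the mean of a lane's 8 negative controls in at least 5 of 17 lanes were tested in edgeR 4.0.16 (R 4.3.3) by quasi-likelihood with TMM scaling without miR-720 and diet in the model, with Benjamini-Hochberg adjustment. All 598 endogenous probes other than miR-720 were considered, viral ones included. SE is the size of the log2 difference over the square root of its F statistic. Lane measures had two-sided exact permutation tests within diets. Alternatives used DESeq2 1.42.0, limma 3.58.1, other scalings, filters and covariates, and lanes left out. The fits were run on simulated counts with known changes, drawn for all lanes with the spread of the other lanes. Error rates where led lanes vary more than the other lanes were not tested.

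Named probes were the 15 higher and 15 lower with the smallest p-values, the 3 leading members of each list, the 10 most abundant, and the 5 leading probes in each direction of the slope fit; other named probes were chosen after their values were seen. Of the 235 tested probe names 46 matched a RefSeq mature name exactly, and the arms of the 17 miRNAs looked up were assigned by hand. The authors had left out basal 5 and oil 5, which are not analysed here.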

Additional observations from a re-analysis of the deposited data

Results flagged for a closer look

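Within diets, a gap test (the distance of the highest or lowest lane to its nearest neighbour over the whole range, with Dixon's 95% limit) marked 6 of 44 groups of lane measures, where chance marks about 1 in 20. Those marked were the probes above background of SDG 5 (0.714), the spike-in controls of flaxseed 2 (0.632), the positive controls of basal 4 (0.835), the negative controls of oil 1 (0.846), the mRNAs over positive controls of oil 4 (0.793) and Actb of SDG 2 (0.756).

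The leading probes had been chosen for their difference in the led lanes, so their 41 marks in 90 groups are not read against chance. Among the higher ones, basal 1 stood apart for miR-691 (0.739), miR-410 (0.749), miR-664 (0.836), miR-1944 (0.789), miR-328 (0.826), miR-376a (0.756) and miR-326 (0.738). Flaxseed 3 stood apart for miR-410 (0.840), miR-664 (0.769), miR-1944 (0.686), miR-127 (0.634), miR-2183 (0.628), let-7b (0.741), miR-326 (0.660) and miR-674 (0.705). SDG 5 stood apart for miR-691 (0.663) and miR-410 (0.723).

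Among the leading lower probes, basal 1 stood apart for miR-362-3p (0.863), miR-152 (0.825), miR-26b (0.848), miR-301a (0.723), miR-350 (0.771), miR-322 (0.848), miR-31 (0.717) and miR-16 (0.875). Flaxseed 3 stood apart for miR-362-3p (0.720), miR-152 (0.815), miR-26b (0.842), miR-301a (0.779), miR-194 (0.915), miR-350 (0.928), miR-322 (0.861), miR-190 (0.635), miR-148b (0.693), miR-214 (0.654), miR-31 (0.842), miR-16 (0.965), miR-29b (0.654), miR-532-3p (0.785) and miR-96 (0.687). SDG 5 stood apart for miR-350 (0.655).

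In edgeR's quasi-likelihood test for differences among the 3 led lanes, each led lane is 1 lane assumed to vary like the other lanes. Over all tested probes 116 of 235 (49.4%) passed it, and of the 30 leading probes 17 did. The adjusted p values for the higher ones were 0.00174 (miR-664), 0.00289 (miR-1944), 0.0437 (miR-328), 0.0329 (miR-2183), 0.000617 (let-7b), 0.0314 (miR-326) and 0.00648 (miR-674). For the lower ones they were 0.000659 (miR-26b), 0.0356 (miR-301a), 0.00107 (miR-194), 7.78e-06 (miR-350), 0.000308 (miR-322), 0.0343 (miR-214), 0.000325 (miR-31), 4.03e-05 (miR-16), 0.0126 (miR-29b) and 0.0320 (miR-96).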

How the results depend on the processing

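The count of 87 probes called in led against other lanes was 135 with housekeeping scaling, 38 with positive controls, 171 with miR-720 in the library size, 176 with no filter (598 probes tested) and 44 with probes above background in every lane (139 tested). Leaving out a lane gave 37 (without flaxseed 3) to 113 (without SDG 5), and SDG 5 as the only led lane gave 8, an alternative added after the data were seen. It was 67 with replicate number as a block; the same numbers did not pair the lanes (deviations of 16 same-numbered pairs correlated between -0.37 and 0.54, 9 of them under 0.1). The count was 100 with limma-voom and 88 with mouse probes alone. Of the 30 leading probes over up to 35 alternatives each, 951 of 1031 values kept direction and threshold, 65 fell short of the threshold and 15 reversed. These probes were chosen by smallest p, and every alternative used the same led lanes or a part of them. Agreement was thus favoured in advance and is not read as support. The miR-1937a/b and miR-1937c probes kept direction and threshold in all 35 alternatives run for each. miR-691 was tested in 28 alternatives, entering through the led lanes, and is not read as stable. Its 28 values are among the 951.

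With housekeeping scaling miR-362-3p turned to 0.18, miR-152 to 0.55, miR-26b to 0.0060, miR-301a to 0.45, miR-190 to 0.33, miR-148b to 0.89 and miR-29b to 0.96. With miR-720 in the library size miR-410 turned to -0.13, miR-328 to -0.023, miR-376a to -0.23, miR-2183 to -0.060, let-7b to -0.30, miR-326 to -0.35, the miR-297a, miR-466f and miR-669b probe to -0.16 and miR-674 to -0.22. These shifts follow from the changed lane sizes.

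The slope count of 0 became 9 with DESeq2, 25 with miR-720 over positive controls and 76 with no filter, and 0 to 9 with a lane left out (9 without SDG 6); it was 0 with the replicate block. The causes were not tested. The count of 116 for unequal led lanes stayed between 95 and 120.

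With oil lanes added and no diet strata, the summed other endogenous counts (-0.87, adjusted exact p = 0.0364) and the mRNAs over positive controls (-1.81, adjusted exact p = 0.0364) passed. With a lane left out, the mRNA difference ranged from -2.63 (without basal 1) to -0.45 (without flaxseed 3), passing without basal 2 (-1.81). The negative control difference ranged from -1.20 to -0.87 and lost its call without basal 1, flaxseed 3 or SDG 5 (adjusted exact p = 0.0648, 0.233 and 0.117), where fewer assignments exist. The summed counts ranged from -1.25 to -0.21, positive controls from -0.061 to 0.042, ligation controls from -0.45 to 0.086, spike-ins from 0.26 to 0.63 and probes above background from 0.11 to 0.40. No block for cartridge or scan was run, since the file headers name none.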

Other observations

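miR-496, of the Dlk1-Dio3 cluster, was above background in all 3 led lanes and in 1 of the 14 other lanes, too few to be tested. Like miR-1949, it was picked after its values were seen. Its counts were 96 in basal 1, 121 in flaxseed 3 and 129 in SDG 5, against 2 to 30 in other lanes. miR-1949 had 59, 60 and 41 counts in the same led lanes and 5 to 57 in other lanes, and was above background in 0 of the other lanes. Its counts overlapped, and the background limit was higher in most other lanes (21.6 to 66.8 counts) than in led lanes (17.5 to 22.4).

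In the authors' deposited table of log2 values, 16 of 22 columns lay closest to the raw counts of the lane with the same label. The 6 that did not were the SDG columns. Over 134 miRNAs, the SD of the difference from the closest lane was 0.0635 to 0.122 for these columns, against 0.482 to 0.935 from the lane with the same label. miR-720 had a deposited log2 value of 18.33 in the column labelled SDG 3, which lay closest to the lane file labelled SDG 5.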
